A study of Mus musculus with 24 samples.

Results

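The genes described are those of Wnt signaling at the cell surface and its best known effectors in the medial prefrontal cortex (mPFC) of mouse offspring at postnatal day 21 (P21). They were chosen by name and level: rows whose symbol starts with Wnt, Fzd, Sfrp or Dkk followed by a digit, together with Lrp5, Lrp6, Ror1, Ror2, Ryk, Axin1, Axin2, Lef1, Tcf7l2, Wif1 and Ctnnb1, with a mean of at least 1 normalized count over the 12 libraries of each sex. The symbols matched 48 of the 24972 genes in the tables, and 41 of them passed the level threshold. These were 14 ligands, 10 frizzled receptors, 5 other receptors and co-receptors, 7 secreted inhibitors and 5 cytoplasmic and nuclear genes. The 7 genes under the threshold were Dkk1, Dkk4, Wnt1, Wnt3a, Wnt8a, Wnt8b and Wnt9b, and Dkk4 and Wnt8a were listed at 0 in all 24 libraries. All 41 genes also passed the later filter for testing, a sum of at least 10 normalized counts over the libraries fitted.

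Wnt proteins are lipid-modified, secreted signals that act over short distances and bind frizzled receptors together with a co-receptor. In the canonical branch, the co-receptors Lrp5 and Lrp6 draw axin away from the complex that destroys β-catenin, and β-catenin then enters the nucleus and works with the DNA-binding factors Lef1 and Tcf7l2. In the other branches, Ror1, Ror2 and Ryk pass on Wnt signals that shape cell polarity, axon growth and movement. Secreted proteins of the Sfrp, Dkk and Wif families hold the signal in check, either by binding the ligand or by occupying the co-receptor. In the brain the pathway is known for patterning the early cortex, for building the blood vessels of the central nervous system and their barrier, for timing oligodendrocyte maturation and for synapse formation.

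Poly(A) RNA was measured in 24 libraries from offspring of saline-treated (SAL) or morphine-treated (MO) dams, with 6 of each treatment in each sex, to ask how maternal morphine bears on gene expression in each sex. All mice were wild type (WT) B6D2F1/J hybrids (C57BL/6J dam, DBA/2J sire). The dams alone were injected subcutaneously each day, with morphine sulfate (10 mg/kg) or saline, from a week ahead of mating until the pups were weaned at P21, so exposure ran past birth although the labels call it prenatal. As limits of the model, pups had morphine only through the dam, small litters were merged soon after birth, and each litter gave 1 pup of a sex, with littermates across the sexes not identified. Fits over both sexes therefore took all 24 libraries as independent, although brothers and sisters of a litter may be among them.

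The values are the authors' normalized counts, given in a separate table for each sex, so levels were not compared between the sexes. The sum over genes ran from 14.73 to 15.97, in units of 1e6, among the libraries. Such sums are set by the scaling. The study's methods give an approximate read number and a range of RNA integrity, but no value for each library. The depth of each library in reads, and with it the counting error of low genes, is therefore unknown. Cortical excitatory neuron markers were present in every library (summed level of 8 markers 42083 to 51285 normalized counts in 23 libraries), as cortex holds. One female MO library, PFC1, stood apart. Its excitatory marker sum was 32248, its oligodendrocyte marker sum was 295945 against 30153 to 167984 in the other 23 libraries (the highest of them PFC3, also female MO), and it held the highest or lowest of the 12 female values in 24 of the 41 genes, 58.5% against 54% of all genes. In the other 23 libraries that share was 2.44% to 29.3%. Oligodendrocytes were not the only cells to differ in PFC1. Among female libraries it also had the highest marker sums of astrocytes (110584), microglia (9935), endothelium (6791), pericytes (5605) and striatum (7992). Its interneuron sum, 9774, was the lowest. Among male libraries, PFC16 (SAL) had the highest striatum sum, 6371, against 2353 to 4465 in the others. It held the highest or lowest male value in 28.3% of all genes, and PFC19 (male MO) in 28.8%. Female changes that moved by much or turned direction without PFC1 are given both ways, a repeat added after the data had been seen. The column names of 11 libraries carry the word combined, whose meaning is not stated (4 of 6 in both female groups, 1 in male SAL and 2 in male MO), and differences within and outside these libraries are given beside the members past the threshold or near it. In such bulk tissue, fewer cells of a type and less RNA per cell cannot be told apart.

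Levels of the 41 genes in SAL offspring spanned more than 3 orders of magnitude once divided by exon length. Ctnnb1, which encodes β-catenin, a partner of cadherins at cell contacts as well as the transducer of canonical Wnt signals, was the most abundant at 3129 ± 116 normalized counts per kb in males and 3121 ± 196 in females (SD, n = 6 each). Dkk3, a divergent member of the Dickkopf family that neurons express strongly, came next at 2129 ± 74.6 per kb in males and 1994 ± 122 in females. No other member came near them, and in both sexes the SAL ranges of Ctnnb1, Dkk3 and Wnt7b did not overlap.

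Among ligands, Wnt7b was the highest at 232 ± 19.1 normalized counts per kb in males and 234 ± 26.4 in females, followed by Wnt4 at 148 ± 11.9 and 152 ± 20.8. Both are ligands of the cortical neuroepithelium and of neurons. Wnt9a stood at 109 ± 10.99 per kb in males and 103 ± 22.2 in females. Fzd3, which guides axons through the planar polarity branch, was the highest frizzled receptor, at 181 ± 21.97 per kb in males and 152 ± 29.2 in females. Ryk, an atypical tyrosine kinase receptor for axon guidance, led the remaining receptors at 119.5 ± 12.5 per kb in males and 122 ± 6.21 in females.

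Below these genes the order of levels was close. Of 40 pairs of neighbours in the order, the ranges of the 6 SAL libraries overlapped in 34 pairs in males and in 36 in females. The lowest were Wnt10b, at 0.35 per kb in males and 0.74 in females, and Wnt11, at 0.65 and 0.28. On the scale of normalized counts per gene, 17 of the 41 SAL means were over 100 in each sex, 20 in males and 18 in females lay from 10 to 100, and 4 and 6 were under 10. The coefficient of variation among SAL libraries had a median of 14.4% in males (3.51% to 69.1%) and 19.2% in females (5.09% to 92.2%). Near the threshold of the rule, Wnt11 was just inside, with means over 12 libraries of 2.21 normalized counts in males and 1.33 in females, and Wnt9b was just outside with 0.932 and 1.15.

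**Figure D1:**
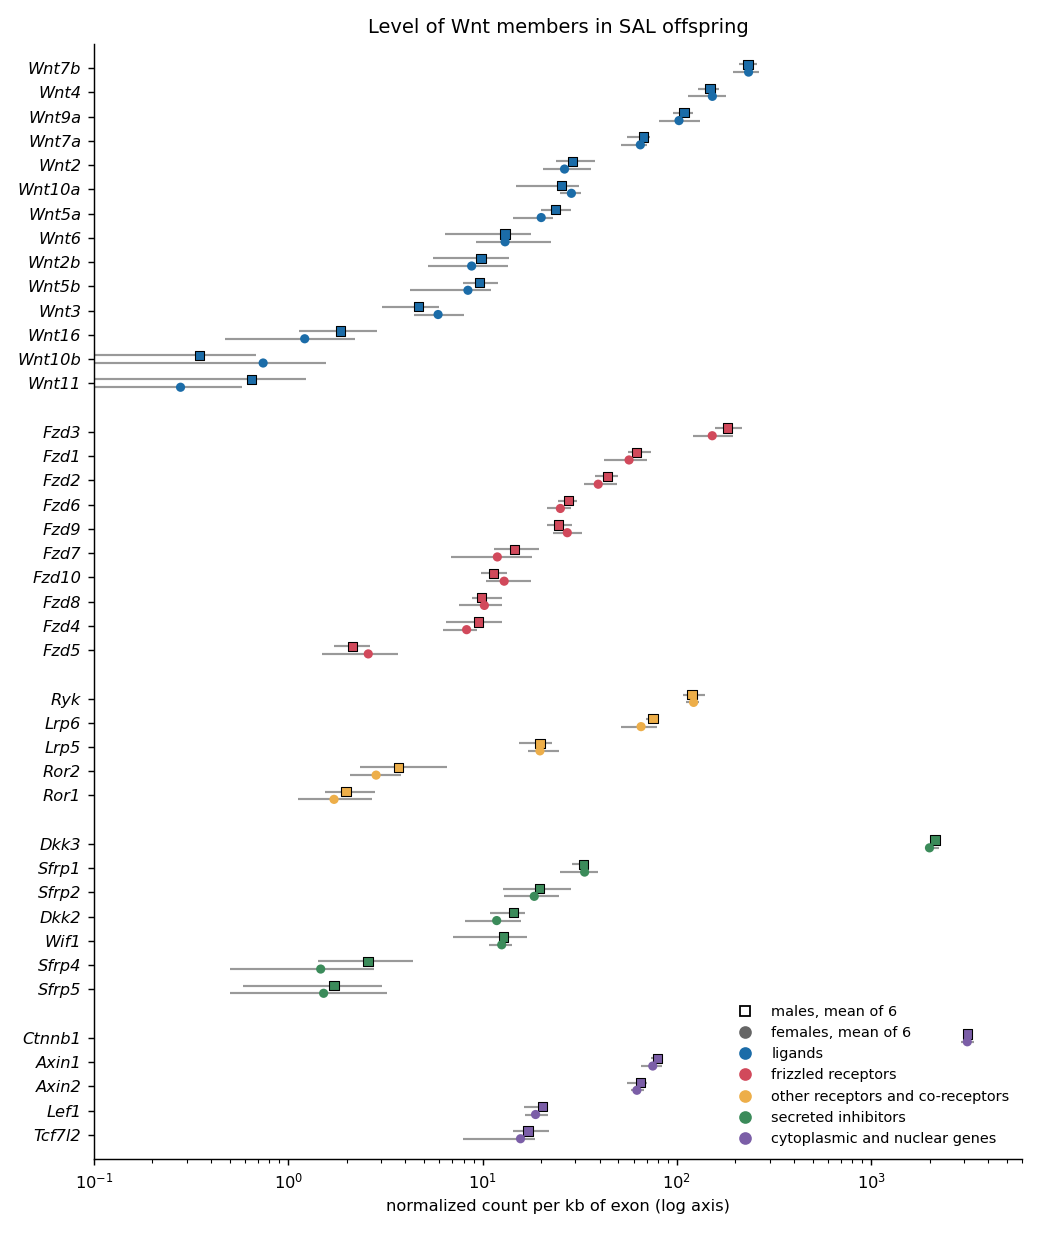
Mean level of the 41 genes in SAL offspring in normalized counts per kb of exon (x axis, log scale) for each gene (y axis, grouped by role), males as squares and females as circles, with lines from the lowest to the highest of 6 libraries. Ctnnb1 and Dkk3 stand apart at 3129 and 2129 per kb in males, and lines that run off the left edge (Wnt10b, Wnt11) include libraries at 0.

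In male offspring, none of the 41 genes differed between MO and SAL at an unadjusted p of 0.05 by limma on log2(normalized count + 1), where 2.85% of the 16662 genes tested did. The smallest p was 0.0508 (Sfrp4), and the adjusted p of every member was 0.9997 or more. Of the 41 log2 fold changes, 19 were above 0, against 49.8% of all genes, and their median was -0.01. The 95% interval of the change lay wholly within 1.5-fold in either direction for 32 of the 41 genes. The 9 genes with wider intervals were Fzd5, Fzd10, Ror2, Sfrp4, Sfrp5, Wnt6, Wnt10b, Wnt11 and Wnt16, whose mean SAL levels were all below 40 normalized counts. Changes on this scale are understated for low genes.

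In female offspring, 4 of the 41 genes passed an unadjusted p of 0.05, all with higher levels in MO and none with lower. Of the 16717 genes tested, 2.93% passed, 1.81% higher and 1.12% lower. They were the receptor genes Fzd6 and Ror2, the nuclear factor gene Lef1 and the ligand gene Wnt7a, and no member passed an adjusted p of 0.05 (smallest 0.918). Of the 41 log2 fold changes 29 were above 0, with a median of 0.12, against 50.5% and a median of 0.00 over all genes. Without PFC1, 24 of 41 were above 0 and the median was 0.04. The same fit then called 3 members, Fzd6, Ror2 and Dkk2, against 2.26% of genes. The 95% interval lay within 1.5-fold for 20 of the 41 genes in females, and the median standard error was 0.19 in females and 0.14 in males. No member in either sex combined an unadjusted p of 0.05 with a log2 fold change beyond 1.2, as 0.132% of male and 0.126% of female genes did. The MO and SAL values overlapped for every member in both sexes, where 0.06% of male and 0.132% of female genes had none in common.

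**Figure D2:**
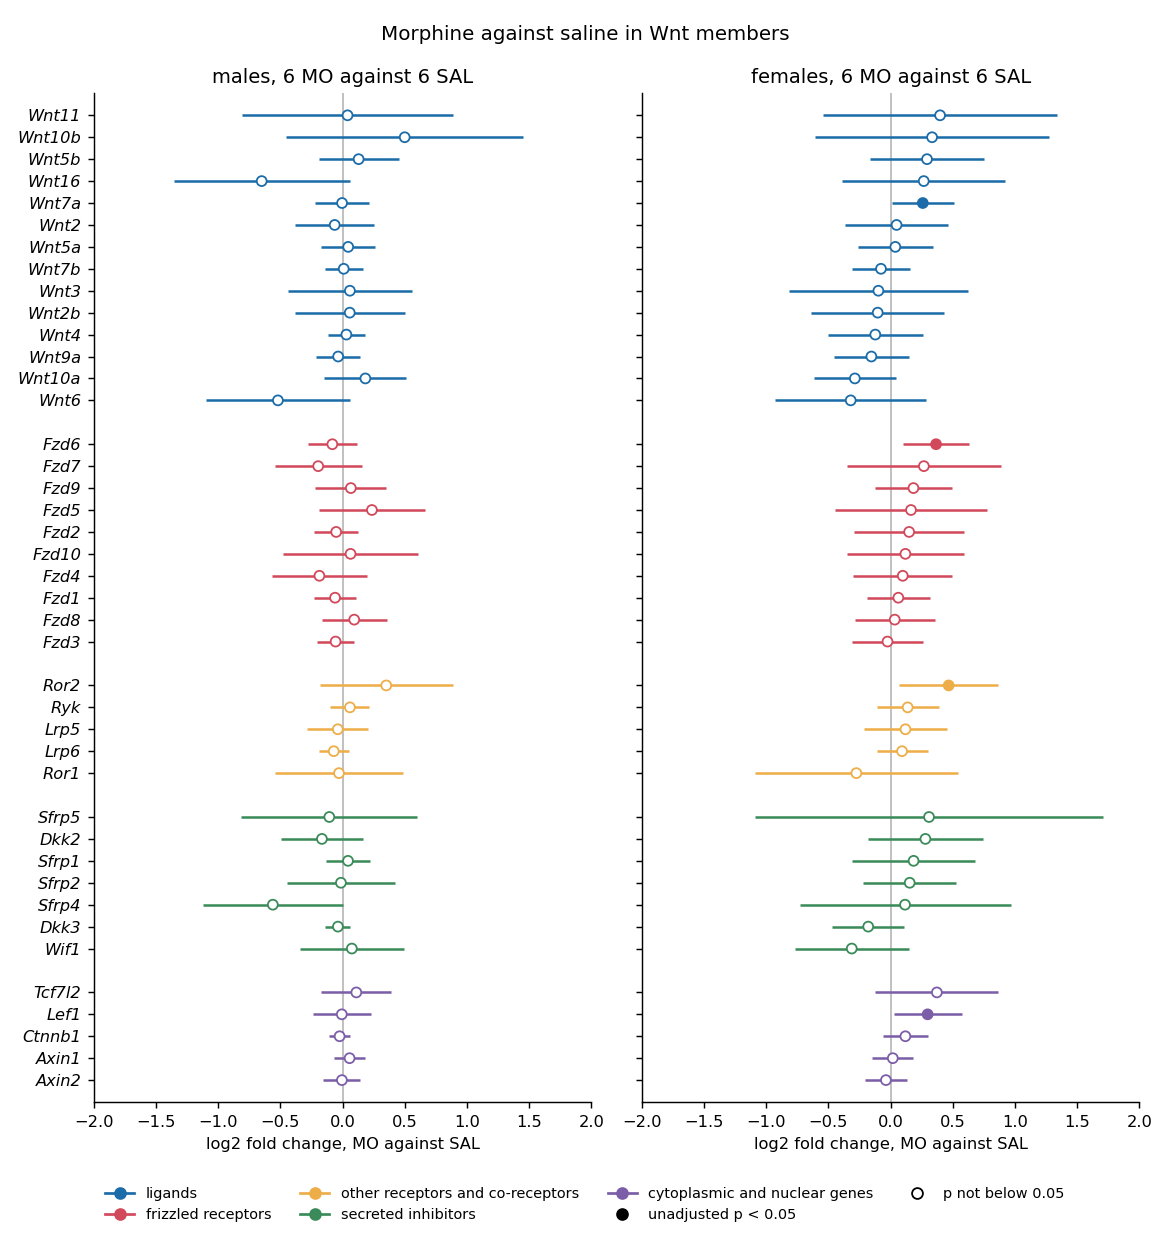
Log2 fold change of MO against SAL (x axis) for each of the 41 genes (y axis, grouped by role) in males (left) and females (right), as limma estimates from 6 against 6 libraries with 95% intervals, filled where the unadjusted p is below 0.05. The 4 filled points are female Fzd6 (0.36), Ror2 (0.47), Lef1 (0.30) and Wnt7a (0.26), and no male point is filled.

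Promoter sequence is shown for the genes among these 4 that have a window in the RefSeq-based table for GRCm38.p6, together with the pair of members that carry a full TCF/LEF motif. Each window holds 300 bases, from 250 before an annotated start to 50 after it, read 5′ to 3′ on the strand of the gene. Lef1, Wnt5b and Wnt11 have more than 1 annotated start, and only 1 window of each is shown. For Wnt5b and Wnt11 it is the window with the full motif, which their other windows lack. Capitals mark the core CTTTG of the TCF/LEF site or its reverse complement CAAAG, and the full motif (CTTTGAT or CTTTGAA on either strand) where it is present. The Lef1 window is chr3:131110047-131110346 (plus strand) and holds the core at 2 positions.
Lef1: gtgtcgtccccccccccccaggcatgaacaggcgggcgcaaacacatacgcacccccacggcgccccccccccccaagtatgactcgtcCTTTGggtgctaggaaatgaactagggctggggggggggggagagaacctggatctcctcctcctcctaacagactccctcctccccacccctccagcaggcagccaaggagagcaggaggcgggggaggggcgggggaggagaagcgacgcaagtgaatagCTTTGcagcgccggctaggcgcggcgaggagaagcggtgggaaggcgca
The Ror2 window is chr13:53286075-53286374 (minus strand) and holds 1 core.
Ror2: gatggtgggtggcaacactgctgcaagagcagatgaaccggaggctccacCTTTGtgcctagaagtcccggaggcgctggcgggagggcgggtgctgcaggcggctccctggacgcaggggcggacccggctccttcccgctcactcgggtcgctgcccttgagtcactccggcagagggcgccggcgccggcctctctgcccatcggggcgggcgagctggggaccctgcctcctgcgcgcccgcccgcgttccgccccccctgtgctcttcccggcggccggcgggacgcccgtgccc
The Wnt7a window is chr6:91411304-91411603 (minus strand), with neither the motif nor the core.
Wnt7a: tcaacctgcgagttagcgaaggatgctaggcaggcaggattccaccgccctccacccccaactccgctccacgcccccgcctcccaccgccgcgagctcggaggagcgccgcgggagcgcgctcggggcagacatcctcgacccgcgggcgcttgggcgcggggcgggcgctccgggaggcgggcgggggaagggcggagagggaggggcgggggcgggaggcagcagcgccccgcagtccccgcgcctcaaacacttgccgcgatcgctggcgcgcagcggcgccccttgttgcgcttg
The Wnt11 window is chr7:98834862-98835161 (plus strand), where the motif begins at -51 from the annotated start.
Wnt11: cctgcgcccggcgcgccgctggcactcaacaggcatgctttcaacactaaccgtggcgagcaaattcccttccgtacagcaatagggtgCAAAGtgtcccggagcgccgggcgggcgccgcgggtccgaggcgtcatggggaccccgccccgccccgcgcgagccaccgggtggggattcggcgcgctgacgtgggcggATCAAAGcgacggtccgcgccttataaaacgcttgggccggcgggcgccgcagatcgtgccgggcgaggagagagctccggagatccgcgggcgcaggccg
The Wnt5b window is chr6:119449337-119449636 (minus strand), where the motif begins at -71.
Wnt5b: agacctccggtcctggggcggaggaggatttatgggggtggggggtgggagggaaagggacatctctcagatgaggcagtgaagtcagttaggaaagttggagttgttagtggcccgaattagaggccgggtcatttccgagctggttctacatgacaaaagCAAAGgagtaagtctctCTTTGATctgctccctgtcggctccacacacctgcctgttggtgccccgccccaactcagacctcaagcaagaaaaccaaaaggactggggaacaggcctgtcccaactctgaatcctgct
A window was at hand for 28 of the 41 members and not for the other 13, Fzd6 among them. The full motif stood in 2 of these 28 genes (7.14%), against 9.88% of all 27025 genes with a window. The core stood in 18 of 36 member windows (50%), against 53.9% of all 32851 windows. Member windows differed more in base content, with a median of 26 CpG pairs against 7 over all windows. A match of letters is a description and does not show binding, and nothing follows from a window without them.

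The ligands gave 7 log2 fold changes above 0 of 14 in females and 9 of 14 in males, and without PFC1 the female count was also 9 of 14. Wnt7a, a ligand of neural progenitors and neurons, was the only ligand past an unadjusted p of 0.05 within a sex, in females. Female SAL libraries had 164, 212 and 223 normalized counts of Wnt7a as lowest, median and highest, and female MO libraries had 185, 250 and 303. The groups overlapped, with 4 of 6 MO libraries above the highest SAL library. The difference was 0.26 on the log2 scale (standard error 0.12, 95% interval 0.01 to 0.51, limma p = 0.0439), and an exact permutation test over the 924 relabellings gave p = 0.0714. In males, SAL libraries had 177, 226 and 231 normalized counts of Wnt7a and MO libraries 167, 216 and 262, with a log2 fold change of -0.01 (interval -0.22 to 0.21). The difference between the sexes was 0.26 (interval -0.07 to 0.60), not past the threshold, and was past it without PFC21 at 0.34. Over both sexes Wnt7a was past the threshold without PFC17, at 0.17. The female call for Wnt7a was lost without any 1 of PFC2, PFC22 or PFC24 (SAL) or PFC1, PFC5, PFC8 or PFC23 (MO), at log2 fold changes of 0.19 to 0.27 and p of 0.0512 to 0.112, and it was 0.22 without PFC1 (exact permutation p = 0.139). Within combined female libraries MO exceeded SAL by 0.21 on the log2 scale, and in the remaining ones by 0.36.

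Wnt6 and Wnt10a are neighbours on chromosome 1, Wnt6 at chr1:74754342-74785322 and Wnt10a at chr1:74792019-74804176 on the plus strand of GRCm38.p6. Wnt6 lay at 13.3, 28.0 and 36.9 normalized counts in male SAL libraries and at 7.40, 20.2 and 26.04 in male MO libraries. None of the 6 male MO libraries reached the male SAL mean, yet the ranges overlapped. In females, SAL libraries had 19.1, 24.2 and 46.4 normalized counts and MO libraries 9.73, 20.7 and 40.5, where PFC1 was the highest MO library. Over both sexes the log2 fold change of Wnt6 was -0.42 (standard error 0.21, 95% interval -0.84 to 0.00, limma p = 0.0503), and an exact permutation within sex gave p = 0.0674. This value missed the threshold narrowly. It was past it without any 1 of PFC17 (male MO), PFC18 (male SAL), PFC1 or PFC8 (female MO), or PFC2, PFC7 or PFC24 (female SAL), at -0.52 to -0.44, and without PFC1 it was -0.52. Within combined libraries the difference of Wnt6 was -0.25 in males and 0.13 in females, and in the remaining ones -0.61 and -1.23, so the female direction turned. In males alone Wnt6 was past the threshold without PFC17 (-0.63) or PFC18 (-0.70).

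Wnt10a lay at 36.7, 66.0 and 77.2 normalized counts in male SAL libraries and at 59.6, 68.5 and 87.4 in male MO libraries, a log2 fold change of 0.18 (interval -0.15 to 0.51). In females it lay at 62.1, 70.9 and 79.3 in SAL and at 41.2, 55.8 and 88.5 in MO libraries, a log2 fold change of -0.29 (interval -0.62 to 0.04). In females 5 of 6 MO libraries were below the lowest SAL library and the other, PFC21, was above the highest. The female Wnt10a change was past the threshold without PFC21 (-0.41) and with sample weights (-0.36). The female change minus the male change was -0.47 (standard error 0.23, past the unadjusted limma threshold, adjusted p = 0.9997). Within libraries marked combined this difference of changes was -0.26 and outside them -0.31. The interaction of Wnt10a was lost in 14 of the 24 fits that left out 1 library (PFC12 and PFC18 of male SAL, PFC13, PFC15, PFC17 and PFC19 of male MO, PFC2, PFC4, PFC7 and PFC24 of female SAL, and PFC1, PFC3, PFC5 and PFC23 of female MO). It was -0.33 without PFC18, whose Wnt10a value was the lowest of the male SAL libraries.

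Among the abundant ligands, the log2 fold change of Wnt7b was 0.01 in males (95% interval -0.14 to 0.16) and -0.08 in females (-0.31 to 0.15), or 0.01 without PFC1. Wnt4 had 0.03 in males (-0.12 to 0.18) and -0.12 in females (-0.51 to 0.26), and without PFC1, which had 333 normalized counts against 492 to 849 in the other MO libraries, it turned to 0.04. Wnt9a had -0.04 in males (-0.21 to 0.14) and -0.15 in females (-0.45 to 0.15). All these male intervals stayed well inside 1.5-fold. Wnt16, a ligand near the floor of detection, lay at 4.97, 7.34 and 12.47 normalized counts in male SAL and at 1.196, 5.24 and 8.36 in male MO libraries (log2 fold change -0.65, interval -1.36 to 0.06, exact permutation p = 0.0844). In females its values were 2.06, 5.19 and 9.66 in SAL and 4.47, 5.50 and 10.3 in MO (log2 fold change 0.27), and the difference between the sexes was 0.92, not past the threshold. Wnt16 was past the male threshold without PFC9 (-0.76) or PFC17 (-0.80). Its mean and that of Sfrp4 are under the 10 normalized counts that the rule for the largest change asks for, and both are named after their values were seen.

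Frizzled receptors gave 9 of 10 log2 fold changes above 0 in females and 4 of 10 in males, but without PFC1 the female count was 5 of 10. Fzd6, a receptor tied to the planar polarity branch and a marker of brain endothelium, was the member with the smallest p in females. Male SAL libraries had 107, 124.6 and 134.5 normalized counts of Fzd6 and male MO libraries 100.1, 117 and 129.7. Female SAL libraries had 93.8, 112 and 125 and female MO libraries 117, 133.5 and 190. All 6 female MO libraries lay above the female SAL mean and 4 lay above the highest SAL library, while the male groups overlapped almost fully. The female log2 fold change was 0.36 (standard error 0.12, 95% interval 0.10 to 0.63, limma p = 0.00996), the adjusted p was 0.918, and the exact permutation p was 0.00649. In males the change was -0.08 (interval -0.28 to 0.11). Female minus male, the change was 0.45 (standard error 0.15, past the unadjusted limma threshold, adjusted p = 0.9997), where 2.1% of the 17303 genes fitted over both sexes passed an unadjusted p of 0.05, 1.34% with the higher change in females and 0.763% with the lower. Of the 41 members 2 passed, Fzd6 upward and Wnt10a downward.

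PFC1 held the highest Fzd6 value, 190, and without it the female change was 0.28 (standard error 0.11, limma p = 0.0202, exact permutation p = 0.0130) and the difference between the sexes 0.36 (p = 0.0146). The unadjusted call for Fzd6 in females held in each of the 12 fits that left out 1 library, at 0.28 to 0.42 on the log2 scale. Split by the column names, MO exceeded SAL by 0.49 within combined female libraries (4 against 4) and by 0.12 in the remaining ones (2 against 2). In males the same split gave 0.24 (2 MO against 1 SAL) and -0.19 (4 against 5), and the female minus male difference was 0.25 within combined libraries and 0.31 in the remaining ones. Among 6 endothelial markers, Pecam1 was higher in female MO by 0.33 and Flt1 by 0.21. Both passed an unadjusted limma p of 0.05, where 1.81% of genes passed with higher levels. The 6 markers all had log2 fold changes above 0, and none was at 0 in any group. Their summed level was 4321 to 5265 normalized counts in female SAL and 4748 to 6791 in female MO, with PFC1 the highest, against 4306 to 5349 and 4379 to 4953 in males, where 0 of 6 markers passed. Without PFC1, Pecam1 was still past the threshold at 0.23, Flt1 at 0.18 was not, and Slc2a1 turned to -0.04, the only one of the 6 below 0. The pericyte marker Rgs5 was also higher in female MO by 0.25, and stood at 0.17 without PFC1, not past the threshold. The direction was not particular to endothelium. With PFC1 included, every listed marker of astrocytes, microglia, oligodendrocytes, their precursors, pericytes, striatum and blood was also above 0 in females. Of the other lists, 7 of 8 meningeal and fibroblast markers and 4 of 6 thalamic and habenular ones were above 0. So were 2 of 8 excitatory neuron, 2 of 7 interneuron and 2 of 6 choroid plexus and ependyma markers. Among the cell type lists, blood had the largest share of markers past an unadjusted limma p of 0.05 over both sexes. These were 6 of 7, all with upward changes, where 4.72% of genes passed. In each sex alone 2 of 7 passed, 1 of the male ones lower. The median log2 fold change of the list was 0.81 in females and 0.51 in males. Median summed blood markers were 6981 normalized counts in female SAL and 10620 in female MO, with overlapping ranges. In males they were 5859 and 10303, again with overlap. The part of any of these cell types in the Fzd6 result was not tested.

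Fzd1 and Fzd2 are close relatives among the frizzled receptors. Fzd1 had a log2 fold change of -0.06 in males (95% interval -0.23 to 0.11) and 0.06 in females (-0.19 to 0.32), or 0.11 without PFC1. For Fzd2 it was -0.05 in males (-0.23 to 0.13) and 0.15 in females (-0.30 to 0.59), where PFC1 had 329 normalized counts and the other 5 female MO libraries had 108 to 160. Without PFC1 the female Fzd2 value was -0.06. For Fzd3 the log2 fold change was -0.06 in males (-0.21 to 0.09) and -0.03 in females (-0.31 to 0.26), with PFC1 at 1314 and the other 5 female MO libraries at 1887 to 2162, and without PFC1 it turned to 0.08. Fzd5, the frizzled receptor with the largest male change, lay at 11.9, 14.97 and 18.3 normalized counts in male SAL and 11.7, 16.7 and 25.5 in male MO libraries, which overlapped (0.23, interval -0.19 to 0.66). The other frizzled receptors, Fzd4, Fzd7, Fzd8, Fzd9 and Fzd10, did not pass the threshold in males, in females, over both sexes or in the interaction.

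**Figure D3:**
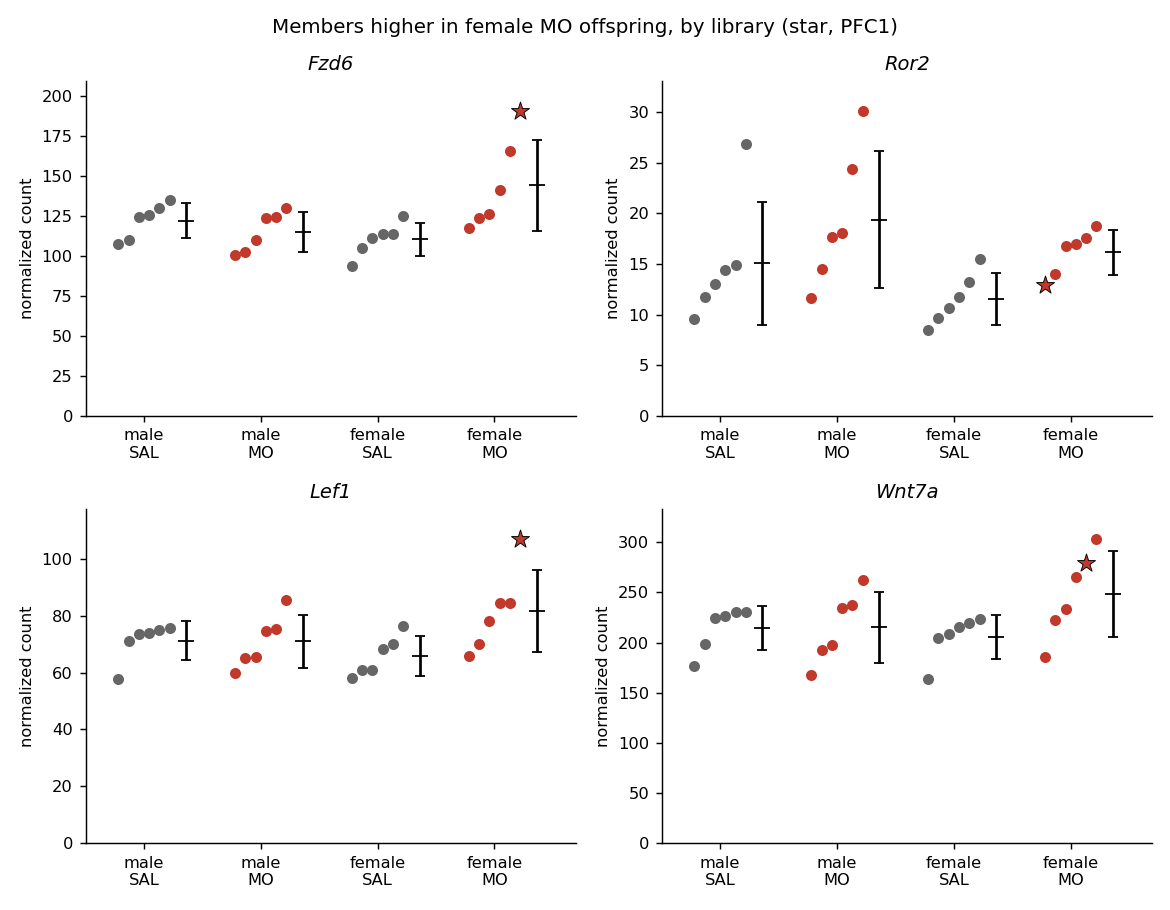
Normalized counts (y axis) of Fzd6, Ror2, Lef1 and Wnt7a in each of 24 libraries by group (x axis), gray for SAL and red for MO, with mean and SD beside each group and PFC1 as a star. In each panel 4 of the 6 female MO libraries lie above the highest female SAL library, and the ranges overlap.

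Ror2, a receptor tyrosine kinase that takes up Wnt5a in the noncanonical branch, was the only member past an unadjusted p of 0.05 over both sexes, where 4.72% of genes passed, 2.51% being higher in MO. Male SAL libraries had 9.51, 13.7 and 26.9 normalized counts of Ror2 and male MO libraries 11.6, 17.9 and 30.1. Female SAL libraries had 8.51, 11.2 and 15.5 and female MO libraries 12.9, 16.9 and 18.8. The ranges overlapped in both sexes, more so in males, and all 6 female MO libraries exceeded the female SAL mean. The female log2 fold change was 0.47 (standard error 0.19, limma p = 0.0248, exact permutation p = 0.0130) and the male one 0.35 (standard error 0.25, p = 0.184). Over both sexes it was 0.41 (standard error 0.15, 95% interval 0.09 to 0.73, p = 0.0139, adjusted p = 0.847, exact permutation p = 0.0140). The fit and the permutation over both sexes took any littermates as independent. The difference between the sexes was 0.12 (interval -0.53 to 0.76), which leaves room for a large difference in either direction.

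The female call for Ror2 was lost without PFC7 (0.39) or without PFC22 (0.42), both SAL. Without PFC1, whose Ror2 level was the lowest of the female MO libraries, it was 0.52 (p = 0.0173, exact permutation p = 0.00866). The call over both sexes held in all 24 fits that left out 1 library. Within combined libraries the female difference was 0.34 and in the remaining ones 0.72. In males it was -0.99 within combined libraries, with 2 MO against 1 SAL, and 0.76 in the remaining ones, 4 against 5, so the male direction turned within that small stratum. Wnt5a, the ligand, is named for its tie to Ror2, outside the rule for named genes, and had log2 fold changes of 0.04 in males (95% interval -0.18 to 0.26) and 0.04 in females (-0.26 to 0.34).

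Neither canonical co-receptor passed the threshold in any of these 4 comparisons. Lrp6 lay at 647, 714 and 734 normalized counts in male SAL libraries and at 606, 656 and 772 in male MO libraries, with a log2 fold change of -0.07 (95% interval -0.19 to 0.05). In females its change was 0.09 (-0.11 to 0.30), and its difference between the sexes was past the threshold without PFC24, at 0.22. Lrp5 had a change of -0.04 in males (-0.29 to 0.21) and 0.12 in females (-0.21 to 0.45), or 0.04 without PFC1. Ryk had 0.06 in males (-0.10 to 0.22) and 0.14 in females (-0.11 to 0.39), the latter with PFC1 at 589 normalized counts and the other 5 female MO libraries at 329.9 to 387, and 0.02 without PFC1.

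Secreted inhibitors had 5 of 7 log2 fold changes above 0 in females and 2 of 7 in males, and none passed an unadjusted p of 0.05 in either sex. Without PFC1 the female count was 2 of 7. Dkk3 lay at 6809, 7157 and 7435 normalized counts in male SAL and at 6219, 7033 and 7684 in male MO libraries, a change of -0.04 (95% interval -0.14 to 0.06). In females the change was -0.18 (-0.47 to 0.11), and it was -0.03 without PFC1, in which Dkk3 stood at 3513 against 6238 to 6899 in the other MO libraries. Sfrp1, which binds Wnt proteins through a frizzled-like domain, had a change of 0.04 in males (-0.14 to 0.22) and 0.18 in females (-0.31 to 0.68). Without PFC1, which had 316 normalized counts of Sfrp1 against 96.5 to 239 in the other MO libraries, the female value was 0.00 on the log2 scale.

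Dkk2, which binds the Lrp5 and Lrp6 co-receptors, lay at 30, 44.3 and 58.2 normalized counts in female SAL libraries and at 30.2, 55.0 and 73.9 in female MO libraries. The lowest MO library was PFC1, the ranges overlapped, and 2 of 6 MO libraries lay above the highest SAL library. The female log2 fold change was 0.28 (standard error 0.22, exact permutation p = 0.273). Without PFC1 it was 0.43 (standard error 0.19, p = 0.0346, exact permutation p = 0.0671), and the difference from the male change of -0.17 was 0.60 (limma interaction p = 0.0233) instead of 0.45 (p = 0.118). With all libraries kept and sample weights, the female Dkk2 change was 0.41 and the difference between the sexes 0.63, both past the threshold. Wif1, an inhibitor that binds Wnt proteins directly, had a female change of -0.31 (95% interval -0.77 to 0.15) and one of -0.12 without PFC1, where PFC1 stood at 11.04 normalized counts and the other MO libraries at 21.99 to 31.5.

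Sfrp4, a low inhibitor gene, had the smallest p among members in males. Male SAL libraries had 5.95, 10.1 and 18.4 normalized counts and male MO libraries 4.72, 6.38 and 8.73. No male MO library reached the SAL mean, 3 lay below the lowest SAL library, and the ranges overlapped. The log2 fold change was -0.56 (standard error 0.27, 95% interval -1.13 to 0.00, limma p = 0.0508), and the exact permutation p was 0.0476. It was past the limma threshold without any 1 of PFC9 or PFC12 (SAL) or PFC11 or PFC15 (MO), at -0.70 to -0.63. In female SAL libraries it lay at 2.10, 6.08 and 11.6 normalized counts and in female MO libraries at 3.0, 5.89 and 14.01, with PFC1 the highest (0.12, interval -0.73 to 0.96, or -0.11 without PFC1). Within combined libraries the difference of Sfrp4 was 0.33 in males and 0.48 in females, and in the remaining ones -0.81 and -0.61, so the male direction turned in combined libraries.

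Markers of meninges and fibroblasts moved in the same direction as Sfrp4, Wnt6 and Wnt16 in males. Of 8 markers, 6 were lower in male MO at an unadjusted p of 0.05, where 1.52% of genes were, with Col1a1 at -0.69 and Foxd1 at -0.58, and all 8 had log2 fold changes below 0. Their summed level was 1213, 1514 and 2278 normalized counts in male SAL and 820, 1275 and 1434 in male MO libraries. In females 0 of 8 passed, with sums of 714 to 2227 in SAL and 1237 to 2269 in MO, PFC1 the highest. There 7 of 8 markers had changes above 0, whereas Wnt6 went the other way at -0.32. The female changes of Wnt16 and Sfrp4 were 0.27 and 0.12. Without PFC1 they were 0.27 and -0.11, and that of Wnt6 was -0.51. None of the markers was at 0 in all libraries of a group. Their part in the values of these low members was not tested.

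**Figure D4:**
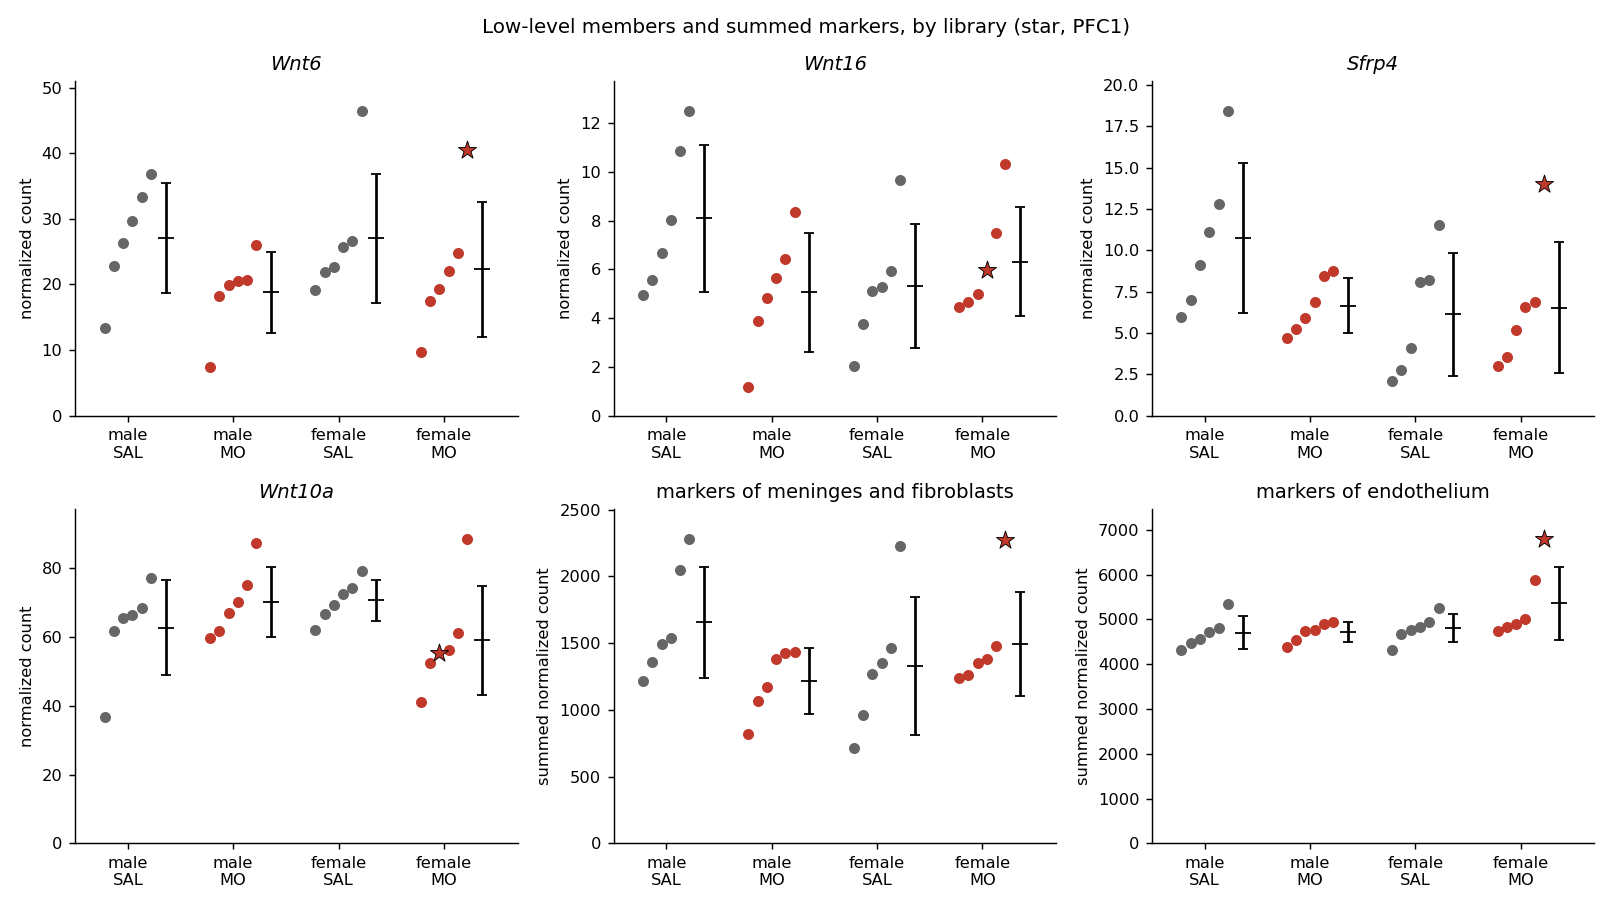
Normalized counts (y axis) of Wnt6, Wnt16, Sfrp4 and Wnt10a, and summed normalized counts of 8 meningeal and fibroblast markers and 6 endothelial markers, in each of 24 libraries by group (x axis; gray SAL, red MO, mean and SD beside each group, PFC1 as a star). Male MO libraries sit low for Wnt6, Wnt16, Sfrp4 and the fibroblast markers, with overlap in each panel.

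Among the cytoplasmic and nuclear genes, none was past the threshold in males and 1, Lef1, in females. Ctnnb1 lay at 10782.5, 11353 and 11870 normalized counts in male SAL and at 10399, 11110 and 12032 in male MO libraries, a log2 fold change of -0.02 (standard error 0.04, 95% interval -0.11 to 0.06). In females the change was 0.12 (standard error 0.09, interval -0.06 to 0.30), or 0.07 without PFC1. Its difference between the sexes was past the threshold with a term for combined libraries, at 0.17. Axin2, a scaffold of the destruction complex whose transcription is a classic readout of canonical signaling, lay at 236, 283 and 299 normalized counts in male SAL and at 249.7, 273 and 309 in male MO libraries. In females it lay at 246, 263 and 290 in SAL and at 216, 258 and 294 in MO libraries. Its changes were -0.01 (interval -0.15 to 0.14) and -0.04 (-0.21 to 0.13). Axin1, its constitutive relative, had 0.06 in males (-0.07 to 0.18) and 0.02 in females (-0.15 to 0.18). For these 3 genes every interval stayed within 1.5-fold in both sexes.

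Lef1, whose promoter window is printed above, encodes a DNA-binding partner of β-catenin. Male SAL libraries had 57.6, 73.8 and 75.6 normalized counts of Lef1 and male MO libraries 59.96, 70.1 and 85.4. Female SAL libraries had 58.0, 64.5 and 76.3 and female MO libraries 65.8, 81.1 and 107. The ranges overlapped in both sexes, with 4 of 6 female MO libraries above the highest female SAL library and PFC1 the highest. The female log2 fold change was 0.30 (standard error 0.13, 95% interval 0.02 to 0.57, limma p = 0.0346, exact permutation p = 0.0281), the male one -0.01 (-0.24 to 0.23), and the difference between them 0.30 (limma interaction p = 0.0756). That difference was past the threshold without any 1 of PFC8, PFC13, PFC16 or PFC22, at 0.35 to 0.36, and with scaling to Gapdh and Ppia, at 0.42. The female call was lost without any 1 of PFC2, PFC4 or PFC6 (SAL) or PFC1, PFC3 or PFC21 (MO), at 0.22 to 0.29 and p of 0.0569 to 0.0826, the exact permutation p without PFC1 being 0.0541. Within combined female libraries the difference was 0.37 and in the remaining ones 0.15. The endothelial and blood values given for Fzd6 stand beside this result too, and their part in it was not tested.

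Tcf7l2, the other DNA-binding partner and a factor of oligodendrocyte differentiation and of the thalamus, lay at 35.0, 77.7 and 82.8 normalized counts in female SAL and at 56.1, 83.4 and 136 in female MO libraries. PFC1, with the highest oligodendrocyte marker sum, had the highest Tcf7l2 value. The log2 fold change was 0.37 in females (95% interval -0.12 to 0.87), 0.24 without PFC1, and 0.11 in males (-0.17 to 0.39). Without PFC23 the Tcf7l2 change was past the threshold in females, at 0.50, and over both sexes, at 0.29. Summed oligodendrocyte markers ranged from 30153 to 133188 normalized counts in female SAL and from 44797 to 295945 in female MO, and 0 of 6 passed an unadjusted p of 0.05 in either sex. Their part in the Tcf7l2 values was not tested.

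**Figure D5:**
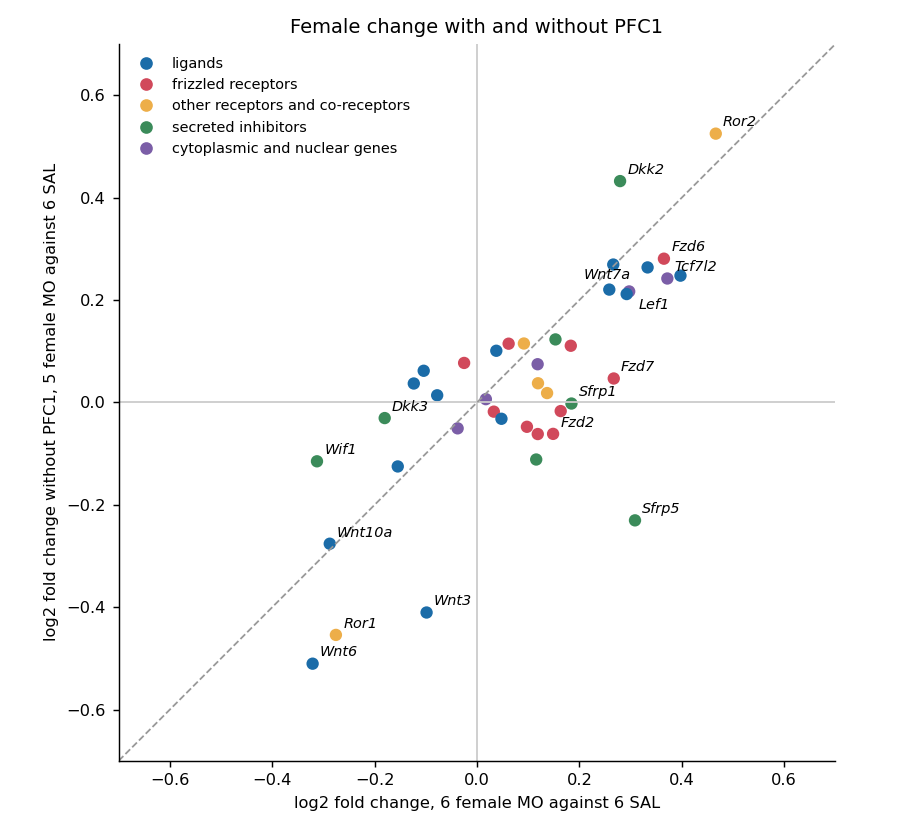
Log2 fold change of the 41 genes in females with all 6 MO libraries (x axis) and without PFC1 (y axis), colored by role, with the line of equality dashed and gray lines at 0. Points to the right of 0 number 29 and points above 0 number 24. Fzd6, Ror2 and Dkk2 pass an unadjusted p of 0.05 without PFC1.

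Beyond the 41, the rest of the pathway was followed in 80 listed genes in 7 groups, all measured in males and 79 in females. In males 3 of 80 passed an unadjusted p of 0.05 (3.75%, against 2.85% of all genes), all lower in MO, and in females 5 of 79 did (6.33%, against 2.93%), 4 higher and 1 lower. None passed an adjusted p of 0.05, and the median log2 fold changes were -0.02 in males and 0.01 in females.

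Lgr5, a receptor for R-spondins, the secreted proteins that heighten Wnt responses, had the smallest p of these genes. Female SAL libraries had 26.5, 34.2 and 40.2 normalized counts of Lgr5 and female MO libraries 17, 18.9 and 28.1. In females 5 of 6 MO libraries lay below the lowest SAL library, and the sixth fell within the SAL range. The log2 fold change was -0.71 (standard error 0.16, limma p = 0.000587, adjusted p = 0.918, exact permutation p = 0.00433). In males SAL libraries had 19.4, 24.2 and 35.5 and MO libraries 14.03, 20.95 and 27.5 (-0.27, interval -0.68 to 0.15). Over both sexes the change was -0.49 (p = 0.000919, exact permutation p = 0.00136), and the difference between the sexes was -0.44 (limma interaction p = 0.0939). The female call held in each of 12 fits that left out 1 library. Within combined female libraries the difference was -0.59 and in the remaining ones -0.93. The other members of its group of 9, the R-spondins and their receptors, did not pass in any of the 4 comparisons.

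The other pathway genes past an unadjusted p of 0.05 had smaller changes. In male MO offspring, Dact1, a modulator of dishevelled, was lower, with a log2 fold change of -0.26 (limma p = 0.0117, exact permutation p = 0.0216). Kremen1, a receptor for Dkk proteins, had -0.15 (limma p = 0.0389, exact permutation p = 0.0173) and Bcl9l, a β-catenin cofactor, had -0.11 (limma p = 0.0294, exact permutation p = 0.0108). In female MO offspring, Ctnnbip1, an inhibitor that binds β-catenin, was higher by 0.21 (p = 0.00955, exact permutation p = 0.0108), and it also passed the unadjusted interaction test (0.21, interaction p = 0.0178). Apcdd1, a membrane inhibitor of the pathway that brain endothelium expresses, was higher by 0.22 (limma p = 0.0274, exact permutation p = 0.0130). Tnfrsf19, a target gene, was higher by 0.19 (limma p = 0.0408, exact permutation p = 0.0671) and Notum, an enzyme that inactivates Wnt proteins, by 0.34 (limma p = 0.0451, exact permutation p = 0.0216). Kremen1 passed the interaction test at 0.25, and that call was lost in 18 of the 24 fits that left out 1 library. Over both sexes Dact1 (-0.19, exact permutation p = 0.0299), Ctnnbip1 (0.11, exact permutation p = 0.0244) and the corepressor gene Tle1 (0.11, exact permutation p = 0.0473) passed beside Lgr5. The male call for Dact1 and the female call for Ctnnbip1 held in each of the 12 fits that left out 1 library. The male call for Bcl9l was lost without PFC10 or PFC14, the female call for Apcdd1 without PFC4, PFC5 or PFC24, the male call for Kremen1 in 7 of 12 fits, and the female calls for Notum and Tnfrsf19 in 7 and 8 of 12. Over both sexes Ctnnbip1 was lost without PFC5 or PFC22, Dact1 without PFC10 or PFC24, and Tle1 in 12 of 24 fits. In the dishevelled and destruction complex group 0 of 17 genes and in the planar polarity group 0 of 14 passed in either sex.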

How the data were processed

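The tables hold the authors' normalized counts, a signal per gene deposited as 1 table for each sex. The study's methods give STAR alignment to mm10 under a first-strand setting and Salmon quantification. The step that scaled the values is not given in the sources used here. They are not raw counts, so no count test was run. Library groups came from the labels. Values were taken as log2(value + 1), and genes summing to at least 10 over the libraries fitted were tested, MO against SAL, with limma 3.58.1 (empirical Bayes with trend, R 4.3.3) and Benjamini-Hochberg adjustment over all genes. Every p that is not called exact, a permutation or adjusted is an unadjusted limma p. Sex entered the fits of all 24 libraries as a covariate, and the interaction is the female minus the male change. These fits, and the permutations within sex, took brothers and sisters as independent although the dam was treated. Their p rest on that assumption. Exact 2-sided permutation tests used all 924 relabellings per sex (smallest p 0.00216), all 462 without PFC1, or all 853776 within sex. The members and lists were chosen with earlier results of these data known. Named genes are members past an unadjusted p of 0.05, the 3 highest in each role, the largest change in each role and sex among members with a mean of at least 10, and other pathway genes past that p, up to 3 a list. Alternatives were other filters (none, or a mean of at least 10), pseudocounts of 0.5 and 5, no trend, sample weights, other scalings, a term for combined libraries, and each library left out. Scripts were tested on simulated data. Sequence shared between genes over 85-base stretches of transcript was absent in 39 of 41 members and at most 0.56% in the others. Exon lengths came from merged exons of the GENCODE basic annotation, and gene positions and windows from RefSeq tables for GRCm38.p6. Figures used Python 3.11.15 and matplotlib 3.10.9.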

Additional observations from a re-analysis of the deposited data

Results flagged for a closer look

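In 96 groups of 6 libraries tested over the named genes, a single library lay far from the other 5 in 14, by Dixon's test on the log2 scale, where chance gives about 1 in 20 groups. Of the 14, 5 were PFC1 in female MO. Its Dkk3 level was 3513 normalized counts against 6238 to 6899 in the other 5 libraries, Fzd3 1314 against 1887 to 2162, and Wif1 11.04 against 21.99 to 31.5, all lower. Its Fzd2 level was 329 against 108 to 160 and its Ryk level 589 against 329.9 to 387, both higher. PFC1 also had the highest oligodendrocyte marker sum, 295945 normalized counts, and its sums for several other cell types were the highest or lowest of the female libraries. The part of any of those cells in these values was not tested.

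The other 9 far libraries were spread over 8 animals. In male SAL, Lef1 was 57.6 normalized counts in PFC16 (others 71.1 to 75.6), Lrp6 was 647 in PFC14 (706 to 734), Sfrp1 was 127 in PFC20 (143 to 153) and Wnt10a was 36.7 in PFC18 (61.9 to 77.2). PFC16 also had the highest striatum marker sum of the male libraries, 6371 normalized counts. In female SAL, Tcf7l2 was 35.0 in PFC24 (61.3 to 82.8), Wnt4 was 478 in PFC2 (648 to 747), and PFC22 had a Wnt6 level of 46.4 (19.1 to 26.6) and a Wnt7a level of 164 (205 to 223). In male MO, Wnt6 was 7.40 in PFC19 (18.2 to 26.04). Without PFC22 the female change of Wnt7a was 0.19, and without PFC18 the interaction of Wnt10a was -0.33, neither past the threshold.

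The interaction test of limma was past an unadjusted p of 0.05 for 2 of 41 members (4.88%, against 2.1% of genes), and for none after adjustment. When 1 library was left out, the Fzd6 call held in 24 of 24 fits and the Wnt10a call in 10 of 24. For Fzd6 the female minus male difference was 0.45 on the log2 scale (standard error 0.15, adjusted p = 0.9997), and for Wnt10a it was -0.47 (standard error 0.23, adjusted p = 0.9997).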

How the results depend on the processing

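No value of a named gene that had passed an unadjusted p of 0.05 turned direction under any alternative run, and adjusted counts were 0 for members in males and females under all alternatives. In males the count of members past an unadjusted p of 0.05 was 0 and became 1 (Sfrp4) with no filter, with a pseudocount of 5 and without the trend. Leaving out 1 library gave 0 to 3, with 3 (Ror2, Sfrp4 and Wnt16) without PFC9, 2 (Wnt6 and Wnt16) without PFC17, and 1 without PFC11, PFC12, PFC15 (Sfrp4) or PFC18 (Wnt6). In females it was 4, with 2 to 4 when 1 library was left out (2 without PFC2 or PFC22) and 3 to 5 otherwise. Over both sexes it was 1 and became 2, with Wnt6 added, with a pseudocount of 5, with sample weights and with a term for combined libraries, and 1 to 3 when 1 library was left out (3 without PFC17). For the interaction it was 2, 1 with no filter and with equal totals, 4 with sample weights, and 1 to 4 when 1 library was left out (4 without PFC8, PFC16, PFC21 or PFC22). Among other pathway genes, the 3 in males became 1 under scaling to Gapdh and Ppia (1 to 5 with 1 library left out, the 1 without PFC10 or PFC14 and the 5 without PFC11), and the 5 in females became 3 with sample weights (2 to 8 with 1 left out, the 2 without PFC4 and the 8 without PFC21). The count of female changes above 0 went from 29 to 24 without PFC1, an alternative added after the data were seen. The cause of these moves was not tested.

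Scaling to Gapdh and Ppia shifted the median log2 change of all genes by 0.12 for the interaction and by 0.09 in females, and the share of called genes that were higher went from 61.6% to 93% in females, 46.7% to 33.4% in males, 53.2% to 87% over both sexes and 63.7% to 90.9% for the interaction. Fzd6 and Ror2 in females and Fzd6 in the interaction stayed past the threshold in 9 of 9 alternatives that kept all libraries, Lef1 was lost with sample weights and Wnt7a without the trend. No paired analysis was possible because each library number belongs to 1 library and no number is shared between groups. The number of reads of each library is unknown, which limits the members under 10 normalized counts most.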
